A study of Anolis chlorocyanus and Anolis cybotes and Anolis osa with 24 samples.

Results

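Leg muscle was compared with jaw muscle in the brown anole, Anolis sagrei, by RNA sequencing of 6 libraries, which were 3 leg libraries and 3 jaw libraries out of 24 in the series. The members were defined by their labels, as the leg and jaw libraries titled with the numbers 15, 16 and 17, and each number occurred once in each muscle. All 6 came from males, and total RNA was extracted from whole muscle. The labels name neither the particular muscle of the leg or the jaw nor the age of the animals, and they give no treatment, genotype or transgene. The other 18 libraries were leg and jaw muscle of males of 3 other species of the genus, Anolis chlorocyanus, A. cybotes and A. osa, with 3 libraries for each species and muscle.

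Skeletal muscles of one body share a contractile machinery but are not alike. Muscles of the jaw arise from head mesoderm of the pharyngeal arches, while limb muscles arise from somites, and the regulators that start the muscle programme differ between the head and the trunk. Many sarcomere proteins, above all the myosin heavy chains that set contraction speed, are encoded by gene families, and a muscle may use one member where another muscle uses a second. In male anoles jaw muscles serve biting in feeding and in fights, and leg muscles serve running and jumping. The table gives genes as identifiers with no symbols, so no gene below is assigned a function, and the labelled tissues were not checked against marker genes.

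Leg and jaw muscle of A. sagrei were separated by a few genes of very high abundance and by many smaller differences. Of 7117 genes tested, 583 differed at an adjusted p of 0.05, which is 8.19% of those tested. Of these, 325 were higher in leg (4.57%) and 258 were lower in leg (3.63%), by edgeR's quasi-likelihood test with the title number as a block and Benjamini-Hochberg adjustment. Together, the genes called higher in leg took 15.9% ± 1.18 of all counts in leg libraries and 1.84% ± 0.199 in jaw libraries (SD, n = 3 each). Those called lower took 3.73% ± 0.236 in leg libraries and 21.2% ± 1.47 in jaw libraries. These shares describe genes that were picked on the same libraries, and they test nothing further. In RNA from a whole muscle, fewer cells of a type and less RNA per cell cannot be told apart. Without the block the same test called 129 genes, DESeq2 with the block called 386, and edgeR without a low-count filter called 1029.

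**Figure D1:**
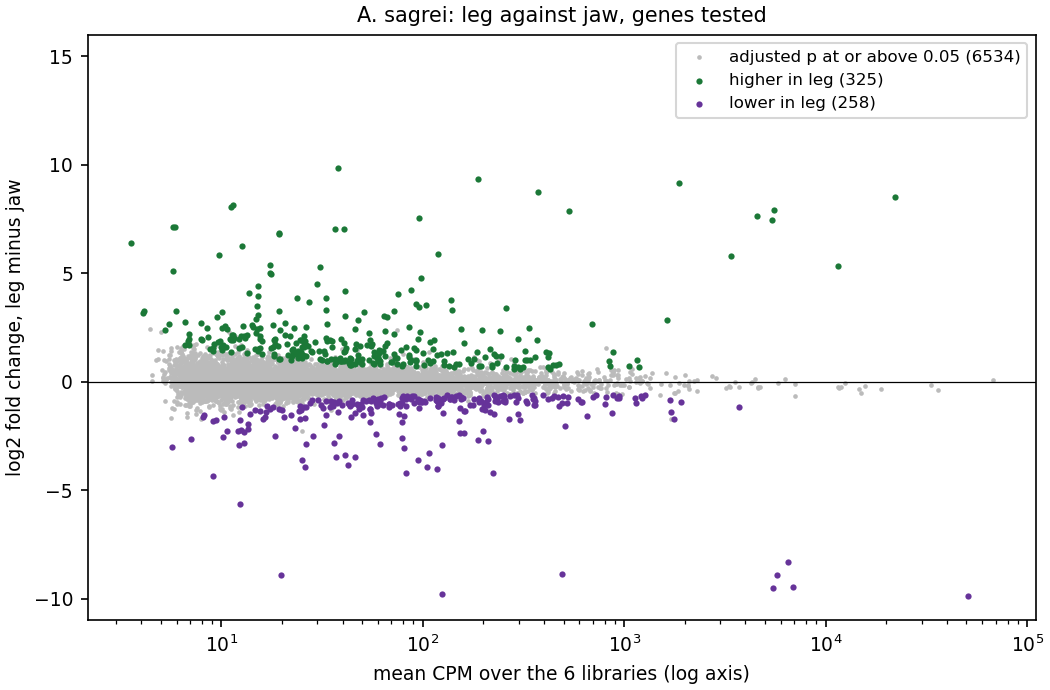
Each point is 1 of 7117 genes, with its mean CPM over the 6 libraries on a log axis and its log2 fold change, leg minus jaw, on the vertical axis. The 325 genes higher in leg are green and the 258 lower are purple, and the few genes beyond 7.5 in either direction include some of the most abundant genes of the muscle.

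The total counts behind these values were 1523388, 1565905 and 1674892 in leg libraries 15, 16 and 17, against 1388867, 1315319 and 1528739 in jaw libraries 15, 16 and 17. The leg library had the higher total in 3 of 3 pairs. It also detected more genes, with 12293 ± 336 genes at 1 count or more in leg and 11653.7 ± 640 in jaw (SD, n = 3 each). After every library was thinned to the lowest total, 1315319 counts, leg still had the higher number in 3 of 3 pairs, at 12008 ± 298 against 11548 ± 524. The top 10 genes of each library by count made up 27.3% ± 1.55 of its total in leg and 32.2% ± 1.96 in jaw, and the leg value was the lower in 3 of 3 pairs. With 3 pairs, a two-sided sign-flip permutation test cannot give a p below 0.25, so no test was made of these totals. A count of 3, the floor used here for a count of 0, corresponded to 1.61 to 2.10 CPM in a leg library and 1.87 to 2.51 CPM in a jaw library.

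A gene with no jaw counts came first by the fold change fitted in edgeR. ENSACAG00000010855 stood at 71.4, 82.9 and 74.9 CPM in leg libraries 15, 16 and 17, from 102, 136 and 140 counts, and had 0 counts in all 3 jaw libraries. The groups did not overlap, and the 3 leg values lay close together. With 3 counts allowed to the jaw libraries together as a floor, its pooled level was at least 102.6-fold higher in leg. The edgeR quasi-likelihood test gave an adjusted p of 1.61e-05, for a gene that passed the low-count filter only through leg. Its fitted fold change depends on the prior count and is not given, and its place in the order depends on it too. By DESeq2, by limma voom and without number 15, the next gene came ahead of it.

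The second gene in that order was nearly absent from the jaw counts as well. ENSACAG00000003494 had 230, 486 and 407 CPM in leg libraries 15, 16 and 17, from 328, 798 and 761 counts, against 1, 0 and 1 counts in jaw libraries 15, 16 and 17. The lowest leg value was that of number 15. The ratio of pooled counts per scaled total, leg over jaw, was 768 with an exact 95% interval of 212 to 6348. Like the other count intervals and floors here, it covers counting error only and leaves out the spread between libraries. It takes each count as a separate molecule, and the reads carry no molecular identifiers. The edgeR adjusted p was 1.39e-07, and this gene too passed the low-count filter only through leg.

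In the opposite direction stood 1 gene that made up a large part of all jaw counts. ENSACAG00000011927 had 189, 82.3 and 78.6 CPM in leg libraries 15, 16 and 17, against 107780, 95191 and 100806 CPM in jaw libraries 15, 16 and 17. It took 0.0117% of leg counts and 9.57% of jaw counts as a mean over 3 libraries. The jaw values spread little, at 101259 ± 6307 CPM, while the leg value of number 15 was over 2 times each of the others. Leg minus jaw was -9.88 on the log2 scale (SE 0.32, adjusted p by edgeR 4.59e-08). The differences within pairs, on log2 CPM, were -9.15 for number 15, -10.15 for 16 and -10.30 for 17.

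The second gene lower in leg was scarcer. ENSACAG00000014926 had 1, 0 and 0 counts in leg libraries 15, 16 and 17, against 188, 436 and 374 counts in jaw libraries 15, 16 and 17, which were 157, 358 and 233 CPM. All 3 leg libraries lay at or under the floor and all 3 jaw libraries far above it. The ratio of pooled counts per scaled total, leg over jaw, was 0.000816 with an exact 95% interval of 2.06e-05 to 0.00456 (edgeR adjusted p = 3.18e-07). The gene passed the low-count filter only through jaw. These 4 genes were chosen as the highest and lowest fold changes among called genes with the same sign in 3 of 3 pairs and at least 5 CPM in the higher muscle.

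**Figure D2:**
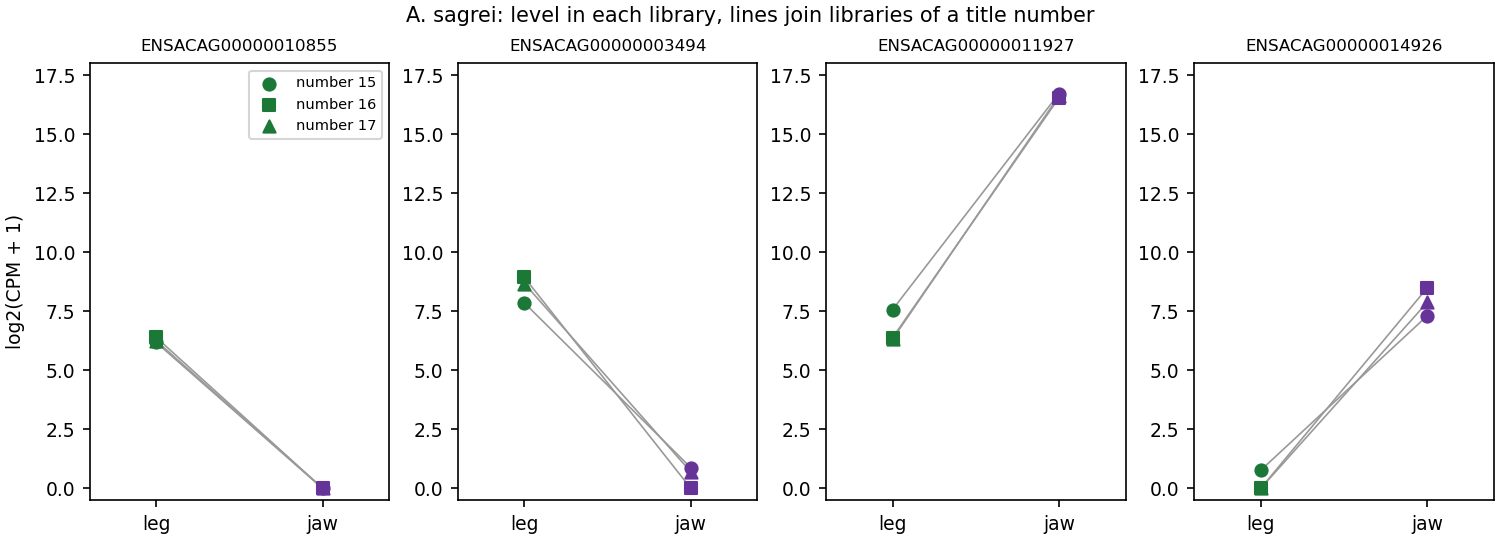
Level of 4 genes in each library of A. sagrei as log2(CPM + 1), leg on the left and jaw on the right, with a line joining the libraries of a title number. In each panel the 3 leg points lie apart from the 3 jaw points, and only ENSACAG00000011927 exceeds 1000 CPM.

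Some of the most abundant messages of the muscle differed between leg and jaw. Of the 20 most abundant genes by mean CPM over the 6 libraries, 5 were called, 2 higher and 3 lower in leg, which is 25% of the 20, against 16.4% of all genes above 100 CPM and 8.19% of all genes tested. The most abundant gene higher in leg was the fifth most abundant of the tested genes. It had 49633, 36350.3 and 45464 CPM in leg libraries 15, 16 and 17, against 205, 32.02 and 192 CPM in jaw libraries 15, 16 and 17, which is 8.54 on the log2 scale (SE 0.47, adjusted p by edgeR 1.56e-06). The leg values lay within 1.5 times of each other, and jaw 16 was well under both other jaw libraries. The next had 22451 ± 3946 CPM in leg and 557 ± 65.3 CPM in jaw (SD, n = 3 each). After ENSACAG00000011927, the next genes lower in leg by abundance had 24.6 ± 26.1 CPM in leg against 13714 ± 2834 CPM in jaw, 41.5 ± 7.80 against 13032 ± 2095 CPM, and 25.2 ± 15.9 against 11451 ± 2581 CPM. The gene with the highest mean over both muscles was, by contrast, not called.

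Genes nearly restricted to 1 muscle were few but held 10.1% to 15.3% of the counts in libraries of their own muscle. To be counted, a called gene needed a log2 fold change of 5 or more in size, a mean of 5 CPM or more in the muscle where it was high, and 1 sign in all 3 pairs, all on these libraries. The fold change was taken as fitted, also for called genes with 0 counts throughout the opposite muscle. By that definition 27 genes were leg-restricted and 9 were jaw-restricted, out of 325 called higher and 258 called lower, and 8 and 5 of them exceeded 1000 CPM in their own muscle. The leg-restricted genes held 12.1%, 10.1% and 11.8% of the counts of leg libraries 15, 16 and 17, against 0.0945%, 0.122% and 0.126% of jaw libraries 15, 16 and 17. The jaw-restricted genes held 0.0336%, 0.0160% and 0.0185% of leg libraries 15, 16 and 17, against 14.2%, 13.4% and 15.3% of jaw libraries 15, 16 and 17. Most of that jaw share was ENSACAG00000011927, which alone took 9.29%, 8.81% and 10.6% of the jaw libraries in the same order. The largest leg-restricted gene took 4.65%, 3.81% and 5.07% of leg libraries 15, 16 and 17. The choice of genes fixes that the groups lie apart, so these values are a description.

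The traces of a set in the opposite muscle differed between libraries. The intervals given here cover counting error only, and 2 libraries of the same muscle differed by more than counting error over all genes too, with a chi-square of 7.37 to 14.6 per degree of freedom. For jaw-restricted genes, leg library 15 held 0.0336% (exact Clopper-Pearson 95% interval 0.0308% to 0.0367%), and leg library 16 held 0.0160% (0.0141% to 0.0181%). Leg library 15 was the highest of the 3 leg libraries for 7 of the 9 genes. Among the 27 leg-restricted genes, the lowest jaw value was in jaw library 16 alone for 11, and in 15 or 17 alone for 1 each. Ties left the remaining genes without a single lowest library. The highest jaw value was in jaw library 15 alone for 10, in 16 for 3 and in 17 for 8. Of the 8 leg-restricted genes that exceeded 1000 CPM in leg, 7 had their lowest jaw value in jaw library 16, while the remaining gene had its highest there. That gene, the sixth of the 8 by its leg level, had 8349.7, 5410.3 and 5653 CPM in leg libraries 15, 16 and 17, against 68.5, 756 and 33.6 CPM in jaw libraries 15, 16 and 17. The third of the 8 had 13148, 10019 and 9930.3 CPM in leg, against 66.8, 4.93 and 101.5 CPM in jaw, in the same order of numbers. In each jaw library 1 gene made up a large part of the leg-restricted share. In jaw library 16 it was the sixth of the 8, at 0.0700% of that library. In jaw libraries 15 and 17 it was the gene ranked 2 of the 8, at 0.0530% and 0.0598%. What these traces come from was not tested.

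**Figure D3:**
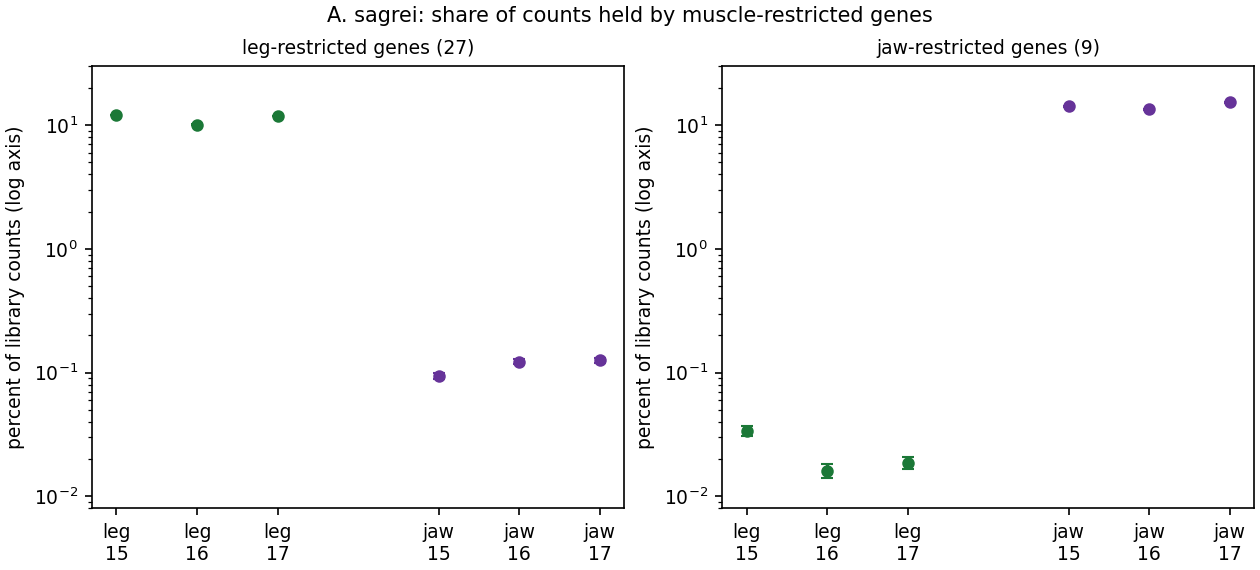
Percent of library counts, on a log axis, held by the 27 leg-restricted genes (left) and the 9 jaw-restricted genes (right) in each leg (green) and jaw (purple) library of A. sagrei. Bars are exact 95% binomial intervals and are shorter than the symbols for most points, and leg library 15 lies above the other leg libraries for jaw-restricted genes.

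Large differences were more often toward leg. Of the 583 called genes, 404 differed at least 2-fold, with 261 higher and 143 lower in leg. At least 8-fold differences were seen in 58 genes higher and 24 lower, and at least 32-fold differences in 27 and 9. These counts use the fold change as fitted, also for 7 called genes, 6 higher and 1 lower, with 0 counts throughout the opposite muscle. Such a gene passes the low-count filter only through the muscle where it is high, and its fitted size depends on the prior count. The median log2 fold change was 1.59 over the genes called higher and -1.07 over those called lower, and 0.03 over all 7117 genes tested. With the 7 called genes that had 0 counts throughout the opposite muscle set at their bound, both medians kept these values. The smallest absolute log2 fold change among called genes was 0.58. A further 217 genes had an estimated change of at least 2-fold but did not pass the threshold, 164 with a positive and 53 with a negative log2 fold change, and 195 of these 217 had the same sign in 3 of 3 pairs.

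Direction varied with level too. In the class of 1254 genes above 100 CPM on average, 83 were higher and 123 lower in leg, and 16.4% of that class was called. Among 4735 genes with a mean of 10 to 100 CPM, 213 were higher and 128 lower, or 7.20% of the class. Among 1128 genes under 10 CPM, 29 were higher and 7 lower, or 3.19%. The leg library was the deeper in each pair, and the part of depth in this pattern was not tested. Genes with a count in all 3 libraries of a muscle and in none of the other numbered 134 for leg and 32 for jaw. The filter on low counts left 6 and 1 of these to be tested, and all of those were called. A gene at 0 in a muscle passes that filter only through the muscle where it is high, so this count gives no support to a difference, and the others were too scarce to be tested.

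Over all 7117 tested genes, called or not, 3012 (42.3%) had the same sign in 3 of 3 pairs, 1617 with leg higher and 1395 with leg lower. Of the 583 called genes, 580 had the same sign in 3 of 3 pairs, 324 higher and 256 lower in leg. The fit is made on these pairs, so the count among called genes follows largely from the call and is no sign of stability. The CPM values of the 3 leg and the 3 jaw libraries did not overlap for 448 of the called genes. Without regard to the test, every leg value exceeded every jaw value in 628 genes, 8.82% of those tested, and lay below every jaw value in 513, or 7.21%. In 218 called genes, 154 higher and 64 lower in leg, every pair differed at least 2-fold.

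The size of the difference varied between pairs. The range of the 3 pair differences of a called gene had a median of 0.78 on the log2 scale, and it was under 1 for 371 genes, or 63.6%, and over 2 for 43. The SD of the 3 pair differences had a median of 0.41 over called genes and 0.37 over all genes tested. Number 17 gave the smallest difference most often. It was the narrowest of the 3 pairs for 149 of the 325 genes higher in leg and 114 of the 258 lower, while number 15 was the narrowest for 84 and 80, and number 16 for 92 and 64. The median pair difference over genes called higher was 1.61 for number 15, 1.51 for 16 and 1.33 for 17. Over genes called lower it was -1.04, -1.12 and -0.92 in that order. Across all 7117 genes, Pearson's r between the differences of 2 pairs was 0.595 for 15 and 16, 0.623 for 15 and 17, and 0.665 for 16 and 17. Spearman's rho was 0.361, 0.378 and 0.386 in the same order. These values are across genes, which are not independent replicates, and the pairs share no library.

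**Figure D4:**
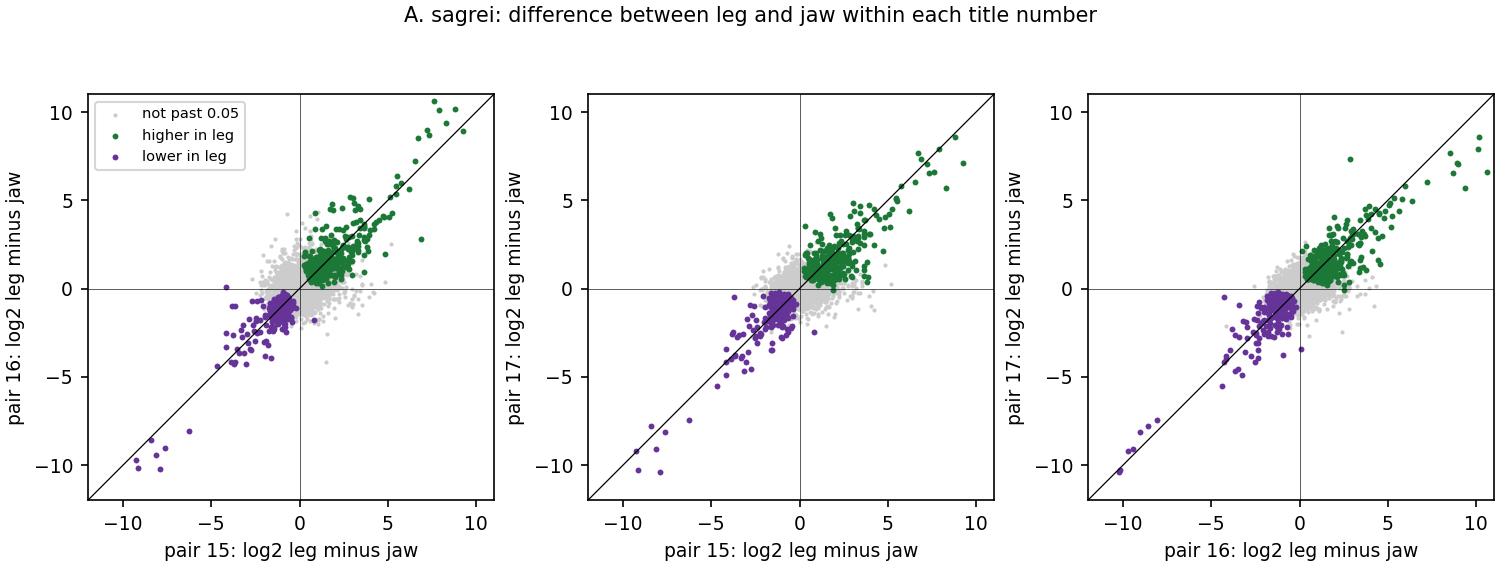
Difference in log2 CPM between leg and jaw within one title number against that within another, for each gene tested in A. sagrei, with the diagonal marking equal differences. Called genes (green higher, purple lower in leg) lie in the quadrants of equal sign, with 580 of 583 having 1 sign in all 3 pairs, and the gene far from the diagonal at top centre of the right panel had the narrower difference in number 16.

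The title number left a mark of its own in both muscles. Libraries of leg and jaw with the same number deviated from their group means together, with a correlation over genes of 0.383 for number 15, 0.472 for 16 and 0.649 for 17, against -0.403 to -0.0151 for leg and jaw of different numbers. The 3 deviations of a group add up to 0, so the negative values follow in part from the positive ones. Of the variance of log2 CPM within the 6 libraries, the muscle took 42.2% with 1 degree of freedom, the title number 43.6% with 2, and the remainder 14.2% with 2. By edgeR's quasi-likelihood test with 2 degrees of freedom, 793 genes differed among the numbers at an adjusted p of 0.05, 11.1% of those tested. Number 17 stood farthest from the mean of the other numbers, with 847 genes called, 479 higher and 368 lower in it. Number 15 gave 223 genes, 131 higher and 92 lower, and number 16 gave 259, 125 higher and 134 lower. Both muscles of number 17 were also the deepest libraries of their group. Of the genes called for number and for muscle, 133 were the same. They made up 16.8% of the number list, against 8.19% of all tested genes called for muscle. They made up 22.8% of the muscle list, against 11.1% of all tested genes called for number. Whether a number stands for an animal is not spelled out in the labels.

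The same fit in the other species sets the count of A. sagrei in context. Leg against jaw called 542 of 7310 genes in chlorocyanus (7.41%), 702 of 6814 in cybotes (10.3%) and 1403 of 7245 in osa (19.4%), each in its own 6 libraries. Of the 583 genes called in sagrei, 388 were called in the same direction in osa, 259 in cybotes and 222 in chlorocyanus. These are 66.6%, 44.4% and 38.1% of the sagrei list, and 27.7%, 36.9% and 41.0% of the list of that species. Of the 583, only 534 were tested in osa, 529 in cybotes and 513 in chlorocyanus, and the rest count as not called there. Calls in the opposite direction numbered 7, 3 and 2 in the same order. Called or not, the direction was the same in 92.5% of the sagrei genes tested in osa, 90.9% in cybotes and 88.9% in chlorocyanus, against 66.8%, 64.8% and 60.3% over all genes tested in both species. No library enters more than 1 of the leg against jaw fits, but the 6 sagrei libraries enter every comparison with another species.

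By the number of other species with the same call, the sagrei list split nearly evenly. In all 3 others 139 genes were called in the same direction, 85 higher and 54 lower in leg, and their median absolute log2 fold change in sagrei was 2.42. In 2 of the others 147 genes were called, in 1 of them 158, and in none 139, with medians of 1.27, 1.05 and 1.13. A gene not tested in a species counts here as not called in it. Seen from the other side, 112 genes were higher and 68 lower in leg in all 3 other species. In sagrei 85 of the 110 tested genes higher there were called higher, and 108 had a positive sign, with a median log2 fold change of 1.96. Of the 68 lower there, 54 were called lower in sagrei and all 68 had a negative sign, with a median of -1.39. Over all genes tested in sagrei, 4.57% were called higher and 3.63% lower, and the median log2 fold change was 0.03.

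Whether the difference between leg and jaw in A. sagrei itself departed from the other species was tested as leg minus jaw in sagrei minus the mean of the 3 such differences elsewhere, in 1 fit to 24 libraries with the title numbers as blocks. The edgeR quasi-likelihood test called 27 of 9123 genes, or 0.296%, of which 10 lay more toward leg and 17 more toward jaw in sagrei. The same contrast called 43 genes for osa, 121 for chlorocyanus and 174 for cybotes. Without the block it called 0 genes by edgeR, where 259 had an unadjusted p under 0.05, while DESeq2 with the block called 44, limma voom with the block 30, and edgeR with no low-count filter called 168. The count and the split between directions changed when single pairs were left out. All 27 genes kept their sign each time, which the shared libraries favour. Without number 16 it was 5 genes, 1 toward leg and 4 toward jaw, all 5 among the 27. Without number 17 it was 14, with 9 toward leg and 5 toward jaw, and 9 of the 14 were among the 27. Without number 15 it was 22, with 4 toward leg and 18 toward jaw, and 12 of the 22 were among the 27. For 264 of the 9123 genes, a muscle group of some species had 0 counts throughout, and the contrast then rests on a fold change with no finite value. This was so for 1 of the 27 and for ENSACAG00000010855 and ENSACAG00000014926, for which no difference between species is given.

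The 27 genes departed in several ways. By the estimates, 13 had the opposite sign from the mean of the others, 9 had the same sign and a larger size in sagrei, and 5 had the same sign and a smaller size. The signs were not tested, and some rest on estimates near 0. A gene counted as larger had a mean of the others of -0.000968. A gene counted as opposite had a sagrei value of -0.0973. The classes therefore do not show a reversed direction. In all 27 the sagrei estimate lay outside the range of the other 3 species, a property that the choice of genes favours. Of the 139 genes called in sagrei and in no other species, 138 were tested for this difference and 13 passed. For the others a departure of sagrei from the others was not shown.

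Among genes with a mean of at least 5 CPM in the higher sagrei muscle, those that lay farthest toward jaw were of unlike abundance. A called gene below that level lay farther, at -4.37 (SE 0.90, edgeR adjusted p = 0.0430). ENSACAG00000014142 had 3.47, 0.619 and 4.71 CPM in leg libraries 15, 16 and 17 of sagrei, from 5, 1 and 9 counts, against 15.5, 16.9 and 20.4 CPM in jaw libraries 15, 16 and 17, from 18, 20 and 33 counts. In sagrei the muscles did not overlap, and the log2 fold change was -2.56. The estimate was 0.26 in chlorocyanus, -0.17 in cybotes and 1.73 in osa. The difference of sagrei from their mean was -3.17 (SE 0.50, edgeR adjusted p = 0.0103), and the adjusted p was 0.0571 without number 16. Over its 8 alternatives the adjusted p ran from 4.87e-09, by edgeR without a low-count filter, to 0.9999, by edgeR without the block.

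ENSACAG00000004704 was higher in leg in every species, and least so in sagrei. It had 797, 444 and 510.3 CPM in leg libraries 15, 16 and 17 of sagrei, against 105, 150 and 211 CPM in jaw libraries 15, 16 and 17, with no overlap. The other species had lower means in jaw, with 226 ± 158 CPM in leg and 1.86 ± 1.49 in jaw for chlorocyanus, 1008 ± 422 and 46.5 ± 12.0 for cybotes, and 488 ± 46.9 and 54.6 ± 41.8 for osa (SD, n = 3 each). The log2 fold change was 1.90 in sagrei, 6.79 in chlorocyanus, 4.39 in cybotes and 3.36 in osa. The chlorocyanus value rests on 2, 5 and 1 jaw counts, near the floor of 3. Its size, and that of the mean it enters, is therefore uncertain. The difference of sagrei from the mean of the others was -2.95 (SE 0.41, edgeR adjusted p = 0.00322). Without the block its adjusted p was 0.583, the highest of its 8 alternatives, and the lowest was 1.10e-25, by edgeR without a low-count filter.

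The genes that lay farthest toward leg in sagrei at that level were scarce. That direction concerns the difference between the muscles, and in both genes the sagrei jaw mean was the lowest of the 4 species. ENSACAG00000015827 had 33.3, 14.9 and 10.5 CPM in leg libraries 15, 16 and 17 of sagrei, from 48, 24 and 20 counts, against 9.45, 3.39 and 2.47 CPM in jaw libraries 15, 16 and 17, from 11, 4 and 4 counts. Both muscles were highest in number 15, and the leg value was the higher in every pair. The mean over 3 jaw libraries was 5.10 CPM in sagrei, against 21.5 in chlorocyanus, 26.1 in cybotes and 105.7 in osa. In leg it was 19.5 CPM in sagrei, against 14.4, 39.7 and 29.9 in the same order. The log2 fold change was 1.94 in sagrei, 0.67 in cybotes, -0.62 in chlorocyanus and -1.67 in osa. The difference of sagrei from the mean of the others was 2.48 (SE 0.52, edgeR adjusted p = 0.0448), and 6 of 8 alternatives put that p above 0.05. It ran from 6.14e-07, by edgeR without a low-count filter, to 0.780, by edgeR without the block.

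ENSACAG00000009518 had 10.4, 24.8 and 19.4 CPM in leg libraries 15, 16 and 17 of sagrei, from 15, 40 and 37 counts, against 0.859, 3.39 and 9.88 CPM in jaw libraries 15, 16 and 17, from 1, 4 and 16 counts. The lowest leg value lay only just above the highest jaw value. The mean over 3 jaw libraries was 4.71 CPM in sagrei, against 27.2 in chlorocyanus, 47.85 in cybotes and 23.7 in osa. In leg it was 18.2 CPM in sagrei, against 36.5, 30.9 and 19.4 in the same order. The log2 fold change was 1.87 in sagrei, 0.44 in chlorocyanus, -0.62 in cybotes and -0.27 in osa, and the difference of sagrei from the mean of the others was 2.03 (SE 0.40, edgeR adjusted p = 0.0323). That adjusted p was 0.0706 without number 15 and 0.229 without number 16. Over its 8 alternatives it ran from 0.000215, by edgeR without a low-count filter, to 0.780, by edgeR without the block. Reads of all species were counted on the same identifiers, so a sequence difference that alters mapping to 1 gene in 1 species cannot be told apart from a difference in level.

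**Figure D5:**
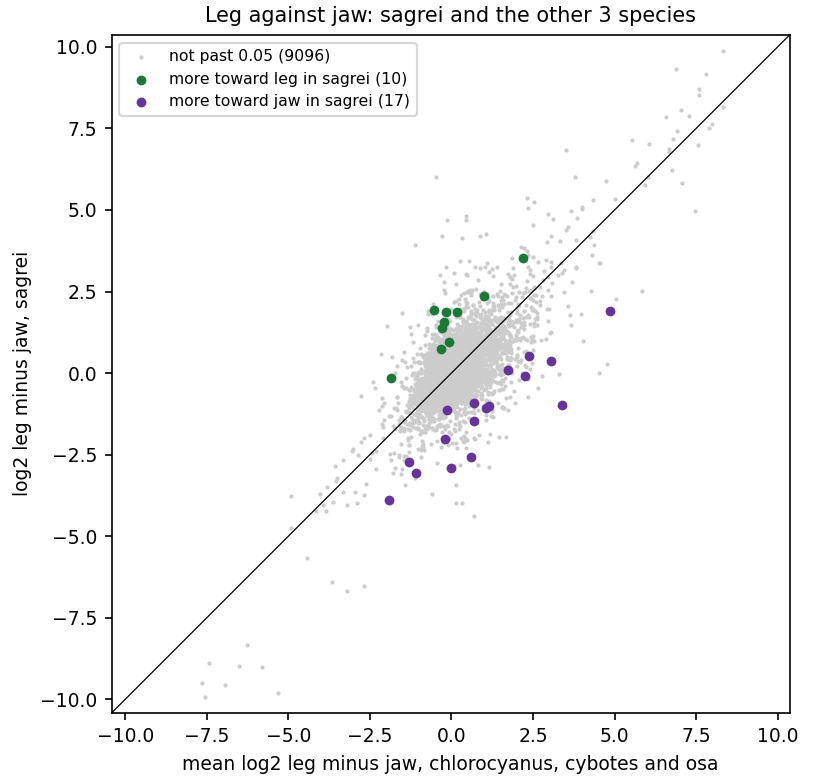
Log2 fold change, leg minus jaw, in A. sagrei against the mean of the log2 fold changes in A. chlorocyanus, A. cybotes and A. osa, for 9123 genes in the fit to 24 libraries, with the diagonal marking equal values. The 10 green genes lie above the diagonal and the 17 purple genes below it, and the genes with the most extreme fold changes in sagrei are not among them.

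Of the 4 genes named for the muscle difference in A. sagrei, the 2 that allowed a comparison had the same direction in each other species. ENSACAG00000003494 had a log2 fold change of 9.32 in sagrei in the fit to 24 libraries, against 7.02 in chlorocyanus, 7.84 in cybotes and 5.77 in osa. Its difference from the mean of the others was 2.44 (SE 1.04) and did not pass the threshold (edgeR adjusted p = 0.485). ENSACAG00000011927 had -9.91 in sagrei, against -9.59 in chlorocyanus, -4.83 in cybotes and -8.22 in osa, a difference of -2.37 (SE 0.96, edgeR adjusted p = 0.454). A p above the threshold does not show that the species are alike in these genes.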

How the data were processed

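RNA was sequenced from whole leg and jaw muscle, in libraries made by BGI per the labels' protocols. STAR, which aligns spliced reads, is named in the submitters' processing notes. The build, annotation, counter, strand setting and STAR version were not given in the sources used here, so reads of near-identical or antisense genes may be shared. The authors deposited 1 table of raw counts for 25920 identifiers, whole numbers with no normalization. Of these, 14829 had a count in the 6 sagrei libraries.

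Tests were run on these counts in edgeR 4.0.16 (R 4.3.3). Low genes were dropped by filterByExpr, libraries scaled by TMM within the 6 libraries, and the quasi-likelihood test fitted with title number and muscle as terms, with 2 residual and 8.29 prior degrees of freedom. SE is the absolute log2 fold change over the square root of F. CPM uses TMM-scaled totals, and log2 CPM a prior count of 2. The tested genes held 98.1% to 99.0% of each library's counts. The rule set for this comparison paired libraries by title number, and the same-number correlations were 0.383 to 0.649. Nothing else tells how replicates were taken, so p-values reflect only the spread among these samples, which may be technical. Replicates differed beyond sampling noise (chi-square per degree of freedom 7.37 to 14.6). The fit to 24 libraries had 8 residual degrees of freedom. Named genes were the 2 highest and 2 lowest in each comparison, with at least 5 CPM in the higher sagrei muscle. The gene lists drawn up were not used, since no table pairs identifiers with symbols. Members and rules were chosen with earlier results of these data known. DESeq2 1.42.0 and limma 3.58.1 were alternatives. On simulated counts for leg against jaw in sagrei, recovery was 7.46% at 1.5-fold, 44.8% at 2-fold and 89.4% at 4-fold. These are 5 of 67, 30 of 67 and 59 of 66 changed genes, in a fit to 6856 genes. Of the 102 calls in that fit, 8 were false. For the difference from other species recovery was 1.49%, 22.4% and 59.1% at the same folds. These are 1 of 67, 15 of 67 and 39 of 66 changed genes, in a fit to 8867 genes with 3 false calls of 58.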

Additional observations from a re-analysis of the deposited data

Results flagged for a closer look

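The difference between leg and jaw muscle in A. sagrei departed from the mean of the other 3 species in 27 of 9123 genes, by a test of that difference itself (edgeR, blocked by title number). Among genes with a mean of at least 5 CPM in the higher sagrei muscle, the 4 named by size were ENSACAG00000015827 at 2.48 and ENSACAG00000009518 at 2.03 on the log2 scale, more toward leg in sagrei, and ENSACAG00000014142 at -3.17 and ENSACAG00000004704 at -2.95, more toward jaw. All 4 kept their direction over 8 alternatives each, which the shared libraries favour. ENSACAG00000004704 kept its call in 7 of them, ENSACAG00000014142 in 6, ENSACAG00000009518 in 4 and ENSACAG00000015827 in 2. With groups of 3, no single library was tested for standing apart.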

How the results depend on the processing

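For leg against jaw in A. sagrei, 583 genes were called, and 569 to 584 under the other 3 scalings. Without the replicate block 129 genes were called, all of them at least 2-fold and all among the 583. DESeq2 called 386, of which 380 were among the 583. Without a low-count filter 1029 were called, 693 of them at least 2-fold, and the called sets then held 17.8% of leg counts (higher set) and 29.6% of jaw counts (lower set). The 24-library fit called 762, sharing 548. Without both libraries of a title number the counts ran from 409 to 566, and from 344 to 442 at 2-fold or more. In each of these alternatives every one of the 583 genes still tested kept its sign, which the shared libraries favour. The 4 named genes kept direction and call in 11 of 11 alternatives, but they were chosen for extreme fold changes on the same libraries. The title number called 793 genes, and 2012 without a filter. The departure of sagrei from the other species called 27 genes, 168 without a filter, 44 by DESeq2, 0 without the block, and from 5 to 22 without 1 sagrei pair, with the split between directions turning from 10 toward leg and 17 toward jaw to 9 and 5 without number 17. The cause of these shifts was not tested. A count of 3 stood for 1.61 to 2.51 CPM, so levels below that are not told from 0 in a single library, and 3.19% of genes under 10 CPM were called, a share whose relation to depth was not tested.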
